A study of Mus musculus with 63 samples.

Results

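AG1478, an inhibitor of the tyrosine kinase of the epidermal growth factor receptor (EGFR), was given to ras-transduced keratinocytes that carry the receptor, and the cells were set against the same kind of cells without inhibitor. The members are all arrays labelled EGFR wild type (WT) with ras and AG1478, 5 samples, and all arrays labelled WT with ras and no inhibitor, 5 samples, together 10 of the 63 arrays of the series. The choice rests on the labels alone. Both groups were skin keratinocytes of newborn CD-1 mice with intact Egfr, and both received the v-rasHa oncogene by retrovirus, from diluted supernatant of Psi-2 producer cells, followed by 4 days of culture. The AG1478 group then had 1 µM of the compound for 2 h. The labels name no vehicle for the group without inhibitor. Other groups of the series used here are WT ras cells given erlotinib or PD153035, WT mock cells with and without AG1478, and EGFR knockout (KO) ras cells with and without AG1478. Each inhibitor was given at the same dose and time. The same 4 days of culture are recorded for these groups, except for WT mock cells without inhibitor, for which none are recorded.

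EGFR sits at the surface of keratinocytes, binds EGF family ligands such as amphiregulin, TGF-alpha and HB-EGF, and passes the signal through Ras to the kinases RAF, MEK and ERK, which switch on immediate early genes within minutes. Oncogenic ras acts below the receptor, yet keratinocytes with it make receptor ligands themselves, so that the receptor is stimulated from outside the cell as well. In skin, receptor activity is known to hold cells in a proliferative, undifferentiated state, and its inhibitors are used against tumours of epithelial origin. A treatment of a few hours reaches fast transcripts first.

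Each array compared a sample with universal mouse reference RNA, a pool from 11 mouse cell lines, so each value is a log ratio of sample over pool, and a difference between groups is a difference of log ratios. That the logarithm is to base 2 was assumed from the spread of the values. The arrays held 26107 to 27977 of 28049 probe values in these 10 samples, and of all probes 20925 carried 1 gene symbol. Keratinocyte genes lay above genes of the reference pool on every array, by 3.66 to 5.93 with AG1478 and by 3.05 to 4.97 without it (difference of the medians of 18 and 22 genes). Array 3 was the least like the others in both groups, with a correlation to the median forward array of 0.559 with AG1478 and of 0.695 without. Experiment numbers in the labels fall into 8 runs, whose meaning is not given. The AG1478 arrays 1, 2 and 5 were in run 7 and arrays 3 and 4 in run 8, whereas the WT ras arrays 1 to 4 were in run 2 and array 5 in run 1, so inhibitor and run cannot be told apart. One array in each group, number 4, had the dyes reversed and was turned round. Nothing but the series' mention of biological replicates says that samples came from separate cultures, so the p-values rest on a spread among samples that could be technical. With bulk RNA, fewer cells of a type and less RNA per cell cannot be told apart.

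Of 27714 probes tested, 249 were higher (0.898%) and 290 lower (1.05%) with AG1478 at an adjusted p under 0.05, here termed called (limma with Benjamini-Hochberg adjustment over all probes), together 539 or 1.94%. With 1 probe per gene, 150 of 14417 genes were higher (1.04%) and 109 lower (0.756%). The groups did not overlap at 688 probes (2.48%), of which 217 were called (0.783%), and at 327 genes (2.27%). The difference was positive in 8349 of the 14417 genes, with a median of 0.11, and a member's sign is read against that shift. Leaving out 1 sample at a time gave 129 to 962 called probes, the lowest without AG1478 array 1 and the highest without AG1478 array 3. With run as a random block a single probe passed, that of Egr1. Of 51 called genes named here, 17 kept an adjusted p under 0.05 in each fit that left out 1 sample and could test them: Egr1, Id2, Meltf, Lrmda, Ssc5d, Slc38a2, Klf6, Zfp36l1, Aste1, Rsad1, Psca, Hnrnpa2b1, St8sia2, Ms4a2, Krt7, Ndrg1 and Cyp11b2. There were 10 such fits, but 7 for Ms4a2 and Cyp11b2, which lack values on 2 WT ras arrays. Those 7 left out no WT ras value of these genes, so how far their calls hang on a single WT ras array was not tested. All these fits took the spread from all 13 groups of the series. When only the groups compared were fitted, 3 probes were called, and of the 51 genes 2 kept their call, Egr1 and Aste1. In all 51, the mean of the run 8 arrays lay on the same side of WT ras as the mean of the run 7 arrays, and in 42 the run 7 mean was the farther one. The calls used the arrays of both runs, and part of these genes were chosen for non-overlap. The shared side was thus partly fixed in advance and is no replication across runs.

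**Figure D1:**
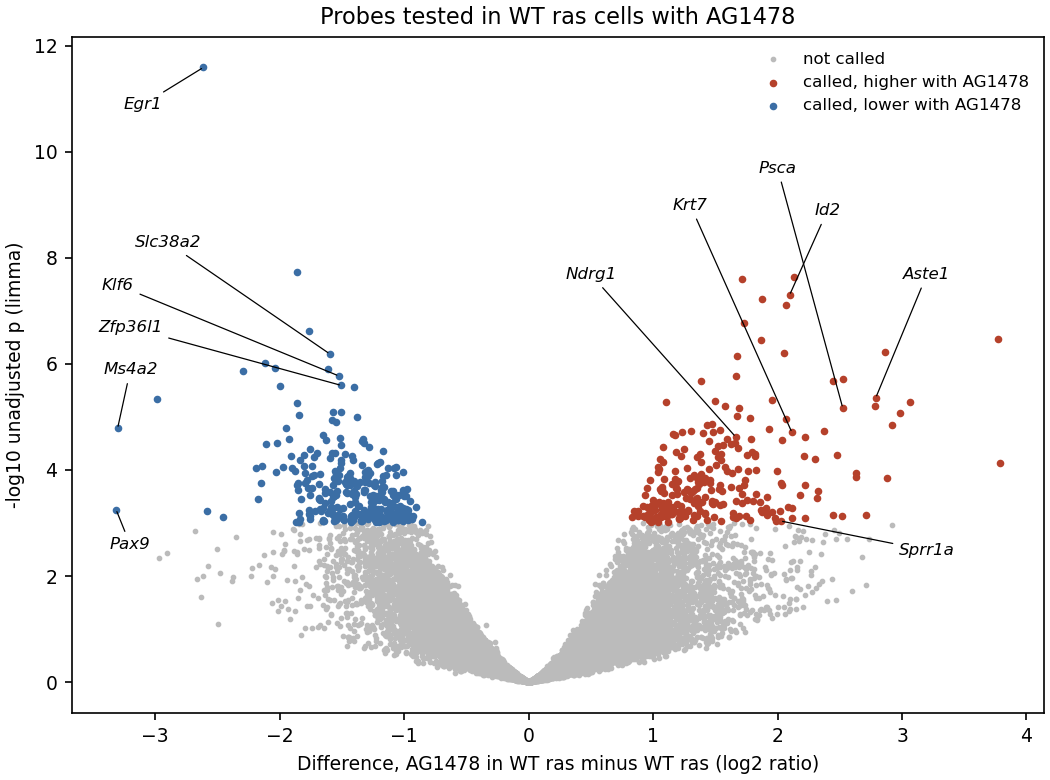
Difference between WT ras cells with AG1478 and WT ras cells (log2, horizontal axis) against −log10 of the unadjusted p (vertical axis), with 1 point per probe. Probes with an adjusted p under 0.05 are coloured, 249 higher in red and 290 lower in blue, and Egr1 stands alone at the top with a difference of −2.61.

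Egr1, a zinc finger transcription factor induced by ERK within minutes of growth factor binding, fell with AG1478. Its log ratio was 0.21, −0.24, 0.08, −0.12 and 0.14 in WT ras cells with AG1478, against 2.19, 2.81, 2.10, 3.30 and 2.75 in WT ras cells. The groups were far apart: every treated sample lay near the level of the reference pool, and every untreated one well above it. The means were 0.01 ± 0.19 with AG1478 and 2.63 ± 0.49 without (SD, n = 5 each), a difference of −2.61 ± 0.29 (SE, limma adjusted p = 7.17e-08), with an adjusted p of 0.000436 when run was a random block. Run 7 averaged 0.04 and run 8 −0.02, so both treated runs gave the same level.

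**Figure D2:**
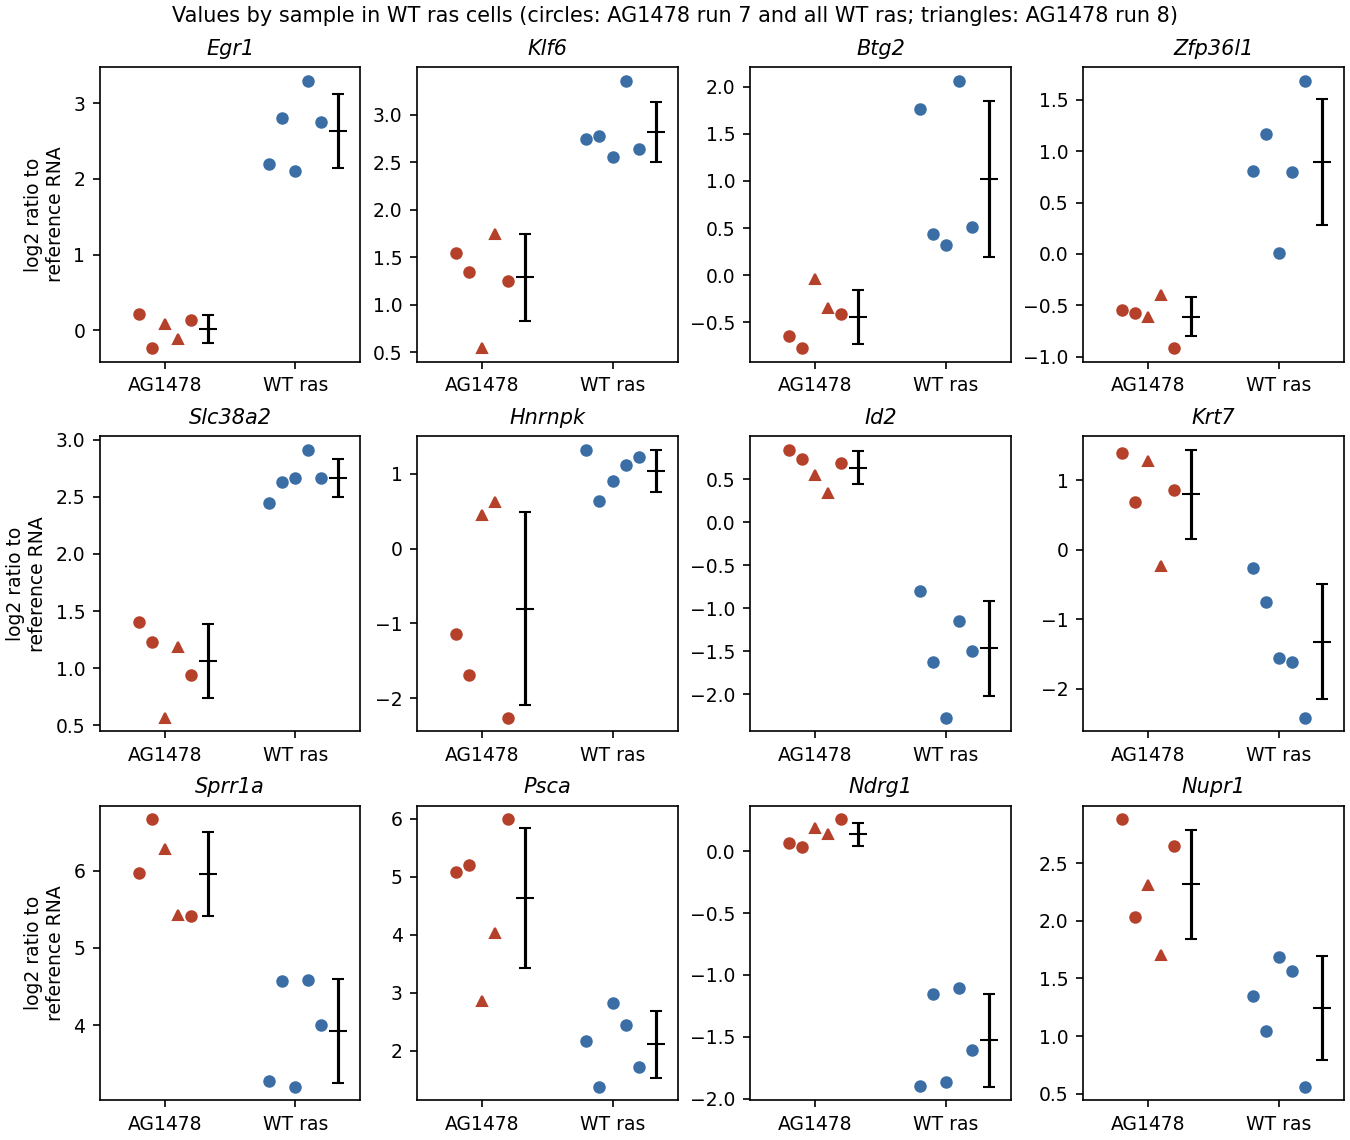
Log2 ratio of sample over reference RNA for 12 genes, with 1 point per sample, WT ras with AG1478 on the left and WT ras on the right of each panel, and bars for mean ± SD. Triangles mark the AG1478 arrays of run 8. Egr1 spans −0.24 to 0.21 with AG1478 and 2.10 to 3.30 without, while Hnrnpk splits by run within the AG1478 group.

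Among the immediate early and feedback genes of the ERK pathway, 32 of 35 listed genes were tested. None rose and 3 fell: Egr1, Klf6 and Btg2 (background for lower calls 0.756% of genes). The list's median difference was −0.19, against 0.11 for all genes, and 10 of the 32 were positive. At an unadjusted p under 0.05, 7 were lower and 1 higher. Klf6, a Krüppel-like factor induced by serum, had 1.55, 1.35, 0.54, 1.75 and 1.25 with AG1478, against 2.74, 2.78, 2.55, 3.36 and 2.64 in WT ras cells. Its groups did not overlap, the difference was −1.53 ± 0.28 (SE, limma adjusted p = 0.00228), and a further probe of the gene was called as well. Btg2, an antiproliferative early gene, had −0.64, −0.78, −0.04, −0.34 and −0.41 with AG1478, against 1.76, 0.44, 0.32, 2.06 and 0.51 in WT ras cells. These groups did not overlap either, but WT ras arrays 1 and 4 stood above the other 3. Btg2 differed by −1.46 ± 0.36 (adjusted p = 0.0213). Its call was lost without WT ras array 1 (difference −1.27, adjusted p = 0.0763), without array 4 (−1.20, 0.0652), and without AG1478 array 1 (−1.42, 0.0646) or array 2 (−1.38, 0.0669).

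Zfp36l1 and Zfp36l2, which encode RNA-binding proteins that bring AU-rich messages of early genes to decay, fell as well, whereas Zfp36, the only other tested member of that family, differed by 0.01 (limma adjusted p = 0.993). This family, like the families of RNA-binding proteins, translation factors and lysosomal genes described further on, was added as a list after its called members had been seen. Zfp36l1 had −0.55, −0.57, −0.61, −0.40 and −0.92 with AG1478, against 0.81, 1.17, 0.01, 0.80 and 1.69 in WT ras cells. No sample crossed over, and WT ras array 3 was the lowest of its group. The difference was −1.50 ± 0.29 (SE, limma adjusted p = 0.00283), with 2 further probes of the same sign, 1 of them called. Zfp36l2 differed by −0.98 ± 0.26 (adjusted p = 0.0303). It lost that call without WT ras array 5 (difference −0.88, adjusted p = 0.104) or 4 (−0.93, 0.0535), or AG1478 array 1 (−0.89, 0.108), 2 (−1.02, 0.0594) or 5 (−0.90, 0.0813).

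Several other early genes did not pass the test. Fos, the partner of Jun in the AP-1 factor, had 1.75, 0.86, 1.66, −1.58 and 1.82 with AG1478, against 2.77, 1.66, 2.03, 3.50 and 2.02 in WT ras cells. Only treated array 4, one of the arrays with reversed dyes, lay far below, and the difference of −1.49 ± 0.62 had a limma adjusted p of 0.193. Dusp1, a phosphatase of MAP kinases, had 0.44, 0.01, 0.19, −0.58 and −0.48 with AG1478, against 1.57, 1.24, 1.49, 1.32 and 0.35 in WT ras cells. One untreated sample, array 5, lay among the treated ones, and the difference was −1.28 ± 0.45 (adjusted p = 0.116). Dusp6, the cytoplasmic ERK phosphatase, differed by −0.91 ± 0.35 (adjusted p = 0.163), although another probe of it was called. Junb, another part of AP-1, was the gene of the list that was higher at an unadjusted p under 0.05, averaging 3.13 with AG1478 and 1.86 in WT ras cells (1.27 ± 0.45, adjusted p = 0.122). Close to no difference were Spry2 (−0.20, adjusted p = 0.749), Fosl1 (−0.17, 0.934), Phlda1 (−0.20, 0.86) and Ier3 (0.13, 0.901). Myc, the growth regulator, differed by −1.12 ± 0.71 (0.431) and the cyclin gene Ccnd1 by −0.53 ± 0.45 (0.574).

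The windows of 250 bases before the start of 3 of the genes that moved are shown because each holds the letters of an element through which ERK and stress kinases are known to act. Capitals mark the matches: the cyclic AMP response element TGACGTCA in Btg2, beginning 166 bases before the start, and the AP-1 element TGANTCA in Zfp36l1, at 129 bases, and in Sprr1a, at 146 and 116 bases. The sequences are from RefSeq on GRCm38.p6, read 5′ to 3′ on the gene's strand. Btg2 lies at chr1:134079156-134079405, Zfp36l1 at chr12:80113014-80113263 and Sprr1a at chr3:92485882-92486131, all on the minus strand.
Btg2: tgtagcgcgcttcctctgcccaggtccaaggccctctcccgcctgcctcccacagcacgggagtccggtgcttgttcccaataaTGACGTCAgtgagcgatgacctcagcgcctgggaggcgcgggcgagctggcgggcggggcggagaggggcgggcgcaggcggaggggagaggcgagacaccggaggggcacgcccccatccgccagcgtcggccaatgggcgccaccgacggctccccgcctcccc
Zfp36l1: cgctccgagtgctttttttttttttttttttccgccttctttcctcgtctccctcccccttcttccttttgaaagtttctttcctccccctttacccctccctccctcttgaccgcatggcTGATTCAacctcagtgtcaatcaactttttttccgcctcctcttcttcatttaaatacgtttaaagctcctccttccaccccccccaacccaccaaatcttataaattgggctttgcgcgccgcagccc
Sprr1a: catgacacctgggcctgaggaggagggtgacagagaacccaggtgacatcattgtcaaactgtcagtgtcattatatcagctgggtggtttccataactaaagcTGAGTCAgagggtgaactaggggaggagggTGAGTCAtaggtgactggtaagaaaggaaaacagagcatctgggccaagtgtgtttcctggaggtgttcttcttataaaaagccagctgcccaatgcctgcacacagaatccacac

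Both strands were searched, and the motifs do not overlap one another in these windows. Over 32851 RefSeq promoter windows, 1.55% held the cyclic AMP element and 6.75% the AP-1 element. Among tested genes with a window the shares were 2.35% and 7.21% (n = 11392). Of 118 genes called higher, 1 held the cyclic AMP element and 12 the AP-1 element, that is 0.847% and 10.2%. Of 84 genes called lower, 2 and 4 held them, that is 2.38% and 4.76%. The EGR1 element GCGTGGGCG was in 3 windows of genes called higher (2.54%) and in 0 of genes called lower, against 0.983% of tested genes. A CArG box, the element of serum response factor, was in 1 window of each called set and in 1.48% of tested genes. The windows of Id2, Klf6, Slc38a2, Krt7, Hnrnpk and Nupr1 held none of the 4 motifs. Matches also lay in 2 windows not shown: an AP-1 element at 242 bases in Ddit3, called higher, and a cyclic AMP element at 143 bases in Dusp1, not called. These letters describe the windows only and show no binding.

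Id2, a helix-loop-helix protein that blocks the DNA binding of its partners, rose. Its log ratio was 0.84, 0.74, 0.55, 0.34 and 0.69 with AG1478, against −0.80, −1.62, −2.27, −1.15 and −1.49 in WT ras cells. All treated samples lay above the reference pool and all untreated samples below it. The means of 0.63 ± 0.19 with AG1478 and −1.47 ± 0.55 without (SD, n = 5 each) differed by 2.10 ± 0.33 (SE, limma adjusted p = 0.000278, or 0.0599 with run as a random block). Within the list of Id genes and genes of BMP signalling, 9 of 10 tested members were positive, with a median of 0.40, but Id2 alone was called (background for higher calls 1.04% of genes). Id1 differed by 0.65 (adjusted p = 0.338), Id3 by 0.28 (0.72), Id4 by 0.39 (0.68) and Smad6, a BMP-induced inhibitor, by 1.38 (0.2). The median over the 10 genes was 0.07 to 0.51 on the treated arrays and −0.69 to −0.08 on the untreated ones, so that the list's levels did not overlap.

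**Figure D3:**
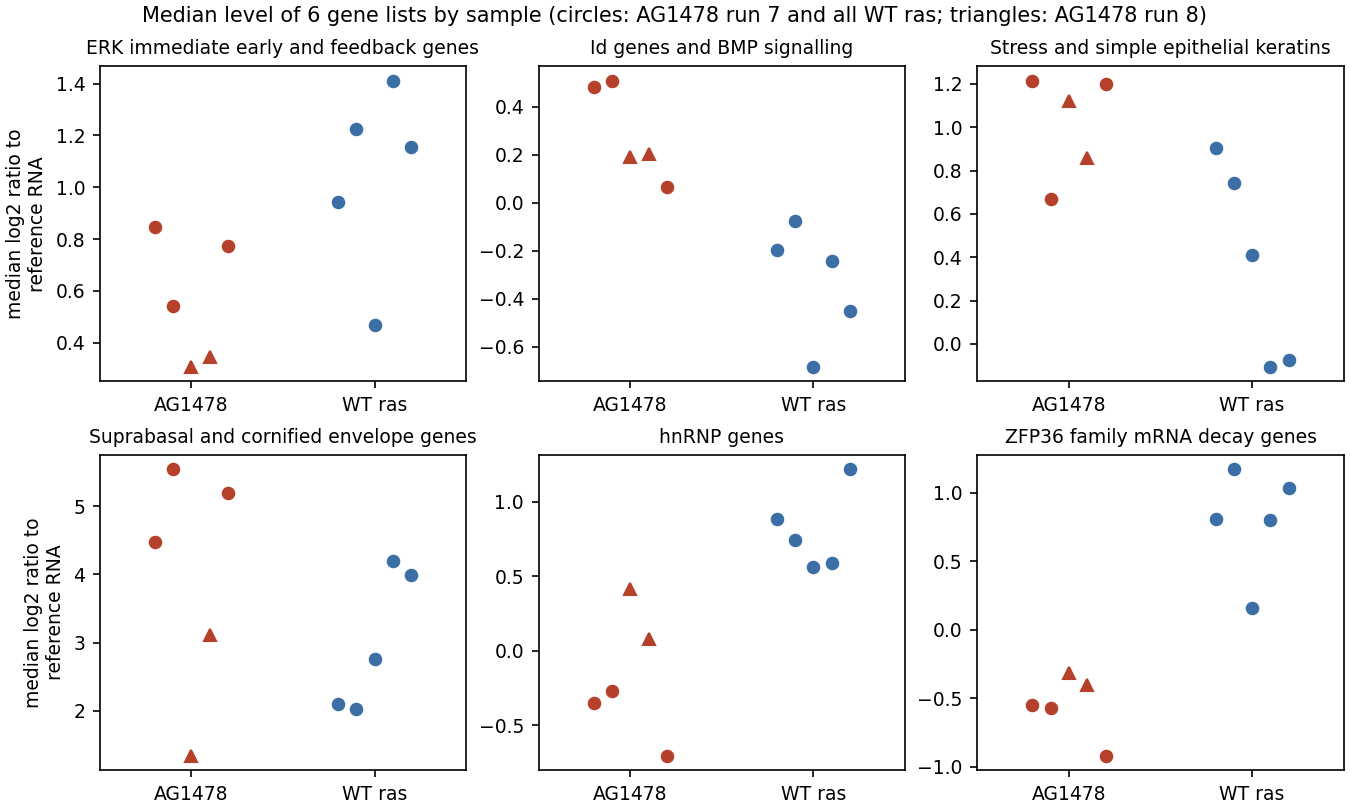
Median log2 ratio over the tested genes of 6 lists in each sample, WT ras with AG1478 on the left and WT ras on the right of each panel. The Id and BMP genes run from 0.07 to 0.51 with AG1478 and from −0.69 to −0.08 without, while the suprabasal genes overlap, with AG1478 array 3 the lowest at 1.34.

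Keratins and genes of the outer epidermal layers were mostly higher with AG1478, although few passed the test. All 12 tested keratins of stressed or simple epithelia were positive, with a median of 0.82, and 1 rose. Krt7, a keratin of simple epithelia, had 1.39, 0.68, 1.27, −0.23 and 0.85 with AG1478, against −0.27, −0.75, −1.56, −1.62 and −2.42 in WT ras cells. The lowest treated sample was just above the highest untreated one. Krt7 differed by 2.12 ± 0.45 (SE, limma adjusted p = 0.00906). The wound keratins Krt16 (1.96, adjusted p = 0.1), Krt17 (2.15, 0.22) and Krt6b (1.78, 0.16) and the simple keratin Krt8 (1.94, 0.18) had differences of about the same size with wider errors, while Krt6a (0.51, 0.81) and Krt18 (0.51, 0.75) were smaller.

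Of 23 tested suprabasal and cornified envelope genes, 20 were positive, with a median of 0.86, and 1 rose. Sprr1a, a small proline-rich protein cross-linked into the cornified envelope, had 5.96, 6.67, 6.28, 5.43 and 5.42 with AG1478, against 3.28, 4.57, 3.20, 4.59 and 4.00 in WT ras cells. Every treated sample was above every untreated one. The difference was 2.02 ± 0.58 (SE, limma adjusted p = 0.0486), which lay at the threshold: the adjusted p was above 0.05 in 20 of 28 alternative settings, including 9 of the 10 in which 1 sample was left out, at up to 0.127 without WT ras array 1. The protease Klk7 (2.27, adjusted p = 0.13), Sprr1b (2.10, 0.22), Lce1b (2.00, 0.3), Casp14 (1.93, 0.27) and Dmkn (1.86, 0.27) were not called. Loricrin, the bulk protein of the envelope (Lor, 0.91, 0.4), and the early suprabasal keratins Krt10 (0.66, 0.48) and Krt1 (0.03, 0.99) were not called either. Further genes of the Sprr, Lce and Klk families, outside the list, were called higher and are not described singly. The median over the list was 4.48, 5.54, 1.34, 3.12 and 5.18 on the treated arrays, against 2.11, 2.03, 2.76, 4.19 and 3.99 on the untreated ones. Treated array 3 was the lowest of all 10 and arrays 1, 2 and 5, those of run 7, the highest 3. The part of run in this pattern was not tested, since the 2 groups share none.

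Among alarmins and antimicrobial genes, 12 of 13 were positive (median 0.77), and Chil1, a chitinase-like secreted protein, rose by 1.73 ± 0.43 (limma adjusted p = 0.0241). That call was lost without any of WT ras array 1 or 2, or AG1478 array 1, 2 or 5, at adjusted p of up to 0.0995. Defb1 (1.30, 0.061) and Defb4 (1.30, 0.09), defensins of epithelia, came next. Psca, a membrane-anchored surface antigen of epithelia that belongs to none of these lists, rose by 2.52 ± 0.51 (adjusted p = 0.00492). It had 5.08, 5.21, 2.87, 4.03 and 6.00 with AG1478, against 2.17, 1.38, 2.83, 2.45 and 1.72 in WT ras cells. Treated array 3 barely cleared untreated array 3. Basal keratinocyte genes showed no shared direction: 7 of 17 were positive, none was called, and Bnc1, a transcription factor of basal cells, had the smallest p (−2.57 ± 0.91, adjusted p = 0.116).

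**Figure D4:**
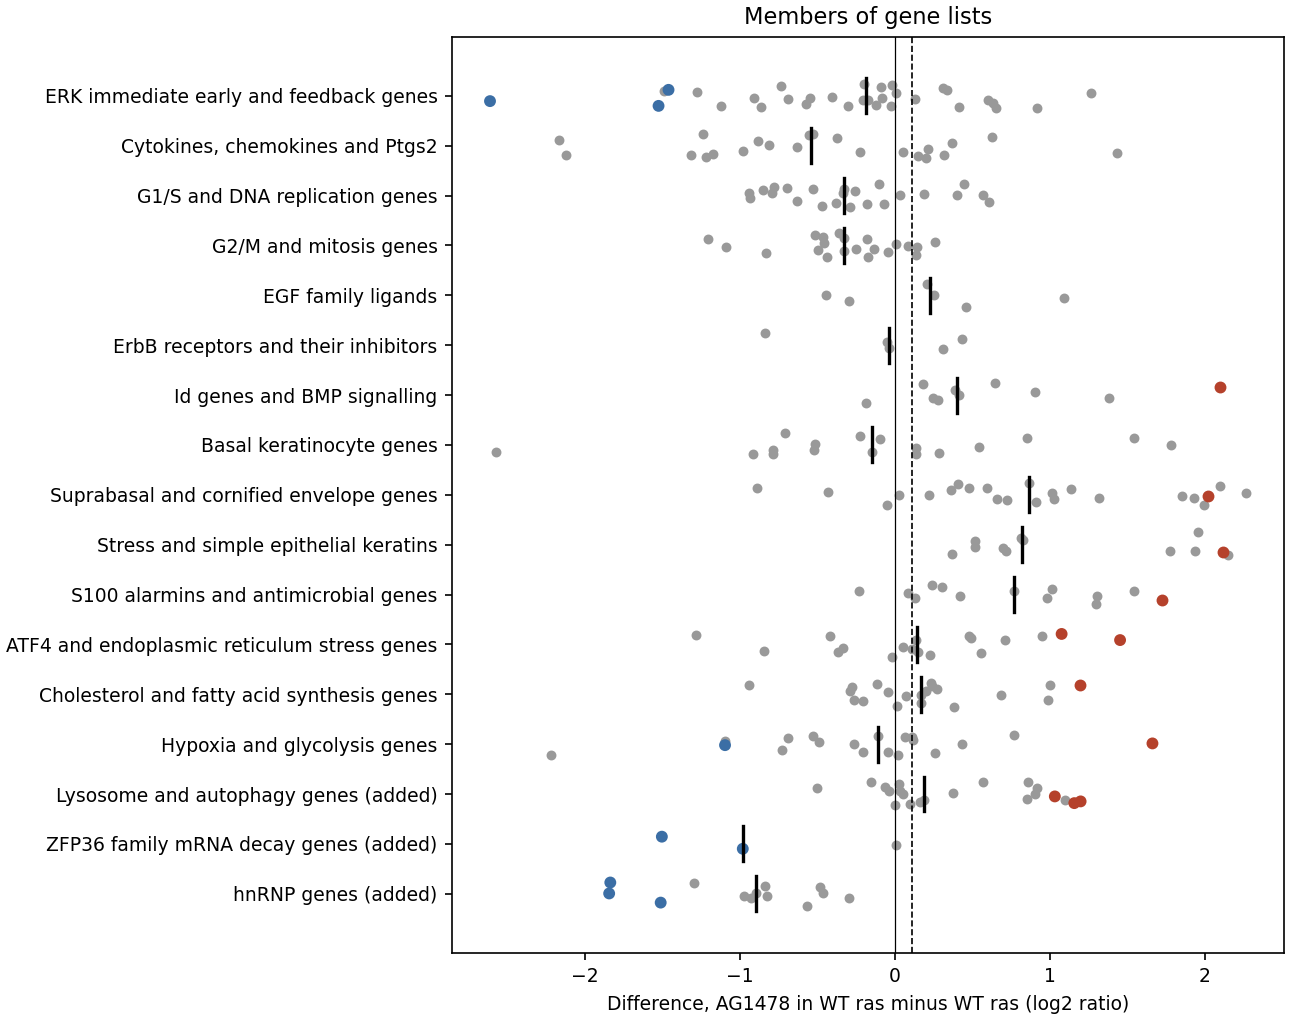
Difference between WT ras with AG1478 and WT ras (log2, horizontal axis) for each tested gene of 17 lists, with 1 point per gene, red for called higher, blue for called lower and grey for not called. The black bar is the list's median and the dashed line the median of all genes, 0.11; suprabasal genes, keratins and alarmins lie to its right, with medians of 0.86, 0.82 and 0.77.

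Nutrient, stress and metabolic genes gave single calls in both directions. Slc38a2, a sodium-coupled transporter of neutral amino acids, fell. It had 1.40, 1.23, 0.57, 1.18 and 0.94 with AG1478, against 2.45, 2.63, 2.66, 2.91 and 2.66 in WT ras cells. The untreated samples were tightly grouped above all treated ones, and the difference of −1.60 ± 0.28 (SE, limma adjusted p = 0.00128) was shared by a further called probe. Ndrg1, a differentiation- and hypoxia-induced gene, rose. Its values were 0.06, 0.03, 0.18, 0.14 and 0.26 with AG1478, against −1.90, −1.16, −1.86, −1.11 and −1.61 in WT ras cells. The treated samples lay close together and none came near the untreated range, with a difference of 1.66 ± 0.36 (adjusted p = 0.0101) and a second called probe. Ndrg1 was 1 of 2 called among 19 hypoxia and glycolysis genes. Hk2, the inducible hexokinase, fell by 1.10 (SE 0.31, adjusted p = 0.0472), but its groups overlapped, and it lost the call in 6 of 10 settings that left out 1 sample, at up to 0.22 without WT ras array 5.

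Of 18 tested genes of the ATF4 and endoplasmic reticulum stress response, 12 were positive (median 0.14) and 2 rose. Ddit3, the stress factor CHOP, had 0.52, 0.49, 1.09, 0.02 and −0.02 with AG1478, against −0.72, −0.79, 0.32, −0.92 and −3.06 in WT ras cells. Untreated array 5 was far below the rest. The difference of 1.45 ± 0.36 (limma adjusted p = 0.0225) became 0.95 (0.156) without that array, and the call was also lost without AG1478 array 1 (1.42, 0.0649) or 2 (1.43, 0.0593). Nupr1, a small chromatin-associated stress protein, rose by 1.08 ± 0.29 (adjusted p = 0.0352), with treated samples at 1.71 to 2.88 and untreated ones at 0.56 to 1.68. Its call was lost in 6 of 10 settings with 1 sample left out, at up to 0.148 without WT ras array 5. Atf4 itself (−0.37, 0.57), Asns (0.11, 0.87) and Hspa5 (−0.02, 0.99) were not called. Mvd, an enzyme of cholesterol synthesis, was the only called gene of 20 in its list, at 1.54 to 2.72 with AG1478 and 0.19 to 1.41 without (1.20 ± 0.30, adjusted p = 0.0265). It lost the call in 4 of 10 such settings, at up to 0.096 without WT ras array 1. Of the lysosome and autophagy genes, 16 of 21 were positive and 3 rose: Map1lc3b, which encodes the autophagosome protein LC3B (1.16 ± 0.25, 0.00947), Grn, the precursor of granulins (1.20 ± 0.33, 0.0417), and Cd68 (1.03 ± 0.27, 0.0352). Grn had 0.77, 0.82, −0.17, 0.67 and 0.90 with AG1478, against −1.69, −0.33, −0.27, −0.17 and −0.55 in WT ras cells, so that 1 sample of each group stood apart and the groups touched. Map1lc3b lost its call in 2 of the 10 settings (up to 0.0513), Grn in 5 (up to 0.163 without WT ras array 1) and Cd68 in 6 (up to 0.118).

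Several genes of RNA binding fell, some of them much further in one run than in the other. All 13 tested hnRNP genes were negative, with a median of −0.90, and 3 fell: Hnrnpk, Hnrnpa2b1 and Hnrnpa3, packaging proteins of nascent RNA. Hnrnpk had −1.14, −1.68, 0.45, 0.63 and −2.26 with AG1478, against 1.32, 0.63, 0.90, 1.11 and 1.22 in WT ras cells. The treated arrays of run 7 averaged −1.69 and those of run 8 averaged 0.54, next to 1.04 in WT ras cells, and treated array 4 and untreated array 2 met. Its difference was −1.84 ± 0.42 (SE, limma adjusted p = 0.0155), 1 of 3 further probes had the opposite sign and 2 were called, and leaving out AG1478 array 5 (difference −1.52, adjusted p = 0.0655) or 2 (−1.67, 0.0613) ended the call. Hnrnpa2b1 showed the same split, with −1.50, −1.76, 0.75, 0.04 and −2.15 with AG1478, against 0.90, 0.86, 0.85, 0.62 and 1.38 in WT ras cells (−1.84 ± 0.38, 0.00615), and 1 of its 3 further probes also had the opposite sign. Eif4g2 (−1.69 ± 0.42, 0.0241) and Eif4b (−1.76 ± 0.48, 0.0405), factors of translation initiation, and the RNA helicase Ddx5 (−1.76 ± 0.46, 0.0294) had every treated value of run 7 below both treated values of run 8. Each lost its call when any one of AG1478 arrays 1, 2 and 5 or WT ras arrays 1 and 5 was left out, at up to 0.143. With the 2 AG1478 arrays of run 8 as the only treated samples, 6 of the 51 called genes kept an adjusted p under 0.05: Egr1, Id2, Ssc5d, Slc38a2, Klf6 and Eif5b. Eif5b, a further initiation factor, was split the other way: it averaged −0.13 in run 7, −1.17 in run 8 and 0.42 in WT ras cells (−0.96 ± 0.27, 0.0447), with array 3 the lowest at −1.97, and without that array the difference was −0.61 (0.168). Of 37 initiation factor genes 16 were positive (median −0.17) and 3 fell, and of 50 ribosomal protein genes 33 were positive (median 0.17) and none was called.

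Of the other large differences, several concern genes with little known in keratinocytes or seldom expressed there. Among genes that rose, Aste1 had 2.20, 1.89, 1.44, 1.85 and 1.84 with AG1478, against −1.15, −0.46, −0.17, −1.21 and −1.74 in WT ras cells. The gap between the groups was wider than the spread within either, at 2.79 ± 0.55 (SE, limma adjusted p = 0.0043). St8sia2, a polysialyltransferase known from neurons, rose by 2.92 ± 0.61 (0.00787), with treated values from 0.53 in run 8 to 4.56 in run 7. Meltf, a membrane-bound iron-binding protein, rose by 1.87 ± 0.30 (0.000278), Lrmda by 2.07 ± 0.33 (0.000303), Rsad1 by 1.96 ± 0.38 (0.00442) and Ssc5d, a scavenger receptor family protein, by 1.73 ± 0.29 (0.000576). Lim2, known from the lens, rose by 2.22 ± 0.62 (0.0456) at high log ratios, 6.97 to 7.53 with AG1478 and 3.92 to 6.35 without, and lost its call in 8 of 10 settings with 1 sample left out (up to 0.113). Fgb (2.03, 0.0241) had no value on WT ras arrays 2 and 3, and the calls of Fgb and Mpped1 (1.82, 0.0141) were each lost in 2 such settings, of 7 that could be run for Fgb, at up to 0.0646.

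Among genes that fell, Pax9, a paired-box factor, had −0.06, −0.55, 0.38, 0.67 and 0.53 with AG1478, against 4.34, 4.99, 3.06, 2.25 and 2.90 in WT ras cells. No treated sample came within 1 unit of an untreated one, yet the error was wide (−3.31 ± 0.90, limma adjusted p = 0.0405) and the call was lost in 7 of 10 settings with 1 sample left out, at up to 0.101 without WT ras array 1. Ms4a2, the mast cell receptor subunit, had −3.27, −3.34, −1.69, −3.42 and −3.05 with AG1478, against −0.12, 1.17 and −0.05 on the 3 WT ras arrays with a value (−3.30 ± 0.69, 0.0086). Cyp11b2, an adrenal enzyme, likewise lacked values on 2 WT ras arrays (−2.11, 0.0111). Nop2, a nucleolar RNA methyltransferase, fell by 1.85 (SE 0.46, 0.0241) and lost the call in 3 settings, at up to 0.126 without WT ras array 5. Cckar (−2.58, 0.0411), Pigb (−2.17, 0.0324), Igkv1-35 (−1.68, 0.0332), Rexo1 (−1.64, 0.0265) and Cd3g (−1.76, 0.0468) also lay outside the untreated range, and each was lost in 5 to 9 of the 10 settings. One of 2 further Rexo1 probes had the opposite sign.

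The lists of cytokines and chemokines, EGF family ligands, ErbB receptors and cell cycle genes held no called gene. The 22 tested cytokine and chemokine genes had a median of −0.54, the lowest of the lists without a called gene, and 8 were positive. Ptgs2, the inducible cyclooxygenase, had 2.61, 5.72, 1.41, 4.24 and 4.49 with AG1478, against 5.77, 5.12, 7.08, 5.85 and 5.49 in WT ras cells. Treated samples spread over more than 4 units, and the difference of −2.17 ± 0.76 was not called (limma adjusted p = 0.115). Cxcl1, a neutrophil chemoattractant, behaved alike at −2.13 ± 0.71 (0.0955), with treated array 1 at −0.57 and array 2 at 5.08. Of 6 tested EGF family ligands 4 were positive, among them Hbegf (0.25 ± 0.55, 0.858), while Tgfa (−0.44 ± 0.51, 0.701) and Ereg (−0.30 ± 1.15, 0.926) were negative. Epgn had no value on any AG1478 array and 1.90 to 5.38 on those of WT ras cells. Egfr itself was at 2.35, 1.69, 0.75, 1.52 and 3.03 with AG1478, against 1.88, 1.91, 0.43, 2.46 and 2.84 in WT ras cells. These ranges overlapped (−0.04 ± 0.40, 0.977).

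For DNA replication 6 of 23 genes were positive (median −0.33) and for mitosis 5 of 21 (median −0.33), with none called. Top2a, the topoisomerase of dividing cells, had −0.95, −0.86, 0.44, 0.33 and −0.33 with AG1478, against 1.32, 1.10, 0.89, 0.55 and 0.81 in WT ras cells. The groups did not overlap but nearly met in run 8, and the difference was −1.21 ± 0.44 (limma adjusted p = 0.132). None of the 15 FOXO targets was called, and Cited2, 1 of the 9 that were positive, had 1.27 to 2.06 with AG1478 and 0.76 to 1.35 without (0.72 ± 0.27, 0.139). NRF2 targets had 13 of 15 positive (median 0.37) and Wnt genes 12 of 14 (median 0.19), all uncalled, with Me1 the closest (1.09, 0.0727). Half-widths of the 95% intervals of single probes had a median of 0.751, so differences under that size were mostly not detectable with 5 arrays a group. These intervals are unadjusted, and a call asked for more: the smallest difference of a called gene was 0.85, that of Surf1. In simulated data of the same layout, 23% of 100 probes with a true difference of 1 were called, and 78% of 100 with −2. All other simulated probes had no difference between the 2 groups. The simulation held no effect of run, whereas arrays of a run correlated at 0.26 in the data, so these shares leave run out.

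Markers of fibroblasts, endothelium and leukocytes had medians below the reference pool in both groups, whereas those of melanocytes lay above it, at 0.62 to 1.62 with AG1478 and 0.22 to 1.43 without. The median of 18 fibroblast markers was −1.93 to −0.46 with AG1478 and −2.42 to −0.56 without, and none was called. Of 14 leukocyte markers, Cd68 rose whereas Cd4 (−1.24, limma adjusted p = 0.0335) and Cd3g fell, with Ptprc at −0.45 (0.63) and Cd3e at 0.05 (0.97); the list's median was −1.40 to −0.29 with AG1478 and −1.64 to −0.54 without. None of the 10 melanocyte, 10 endothelial and 9 muscle or adipocyte markers was called. Viral gag sequences, a trace of transduction, had a median over 27 probes of 0.776 to 1.16 with AG1478 and 0.206 to 1.45 without, and none of these probes was called.

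Whether the inhibitor acted alike in cells without ras was asked by the difference between its effects in WT ras and in WT mock cells. The AG1478 difference in ras cells, less that in mock cells, was called at 5 of 27536 probes (0.0182%), 2 higher (0.00726%) and 3 lower (0.0109%), and the genes named among them are Egr1, Slc38a2 and Ssc5d. Egr1 was at 2.55 ± 0.31 in mock cells with AG1478 and at 2.60 ± 0.49 in mock cells without it (SD), so it differed by −0.04 ± 0.31 there (SE, limma adjusted p = 0.993). The effect in ras cells was lower by 2.57 ± 0.43 (adjusted p = 0.00385, or 0.197 with run as a random block). Slc38a2 differed by 0.57 in mock cells, with an effect in ras cells lower by 2.17 (SE 0.41, 0.0245), and Ssc5d by −0.44, with an effect higher by 2.17 ± 0.42 (0.0245). In mock cells AG1478 gave 0 called of 27812 probes, with 1800 at an unadjusted p under 0.05 (6.47%). The Id2 difference was 0.11 in mock cells, that of Klf6 0.08, that of Zfp36l1 0.41 and that of Btg2 0.21, but for these genes the difference between the effects was not called. The suprabasal genes had 19 of 23 positive in this contrast (median 0.73, against 0.04 for all genes) and none called. Leaving out 1 sample gave 1 called probe (without WT mock array 1) to 10 (without WT ras array 4). The mock groups lie in runs 1 and 2, so here too the AG1478 effect in ras cells spans runs and that in mock cells does not.

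Cells without the receptor offered the second contrast. The KO ras arrays with AG1478 were all in run 8, and those without it in runs 3, 5 and 6. Inhibitor and run therefore cannot be told apart in KO ras cells either. The AG1478 difference in WT ras cells, less that in KO ras cells, was called at 242 of 27679 probes (0.874%), 97 higher (0.35%) and 145 lower (0.524%). Egr1 averaged −0.05 ± 0.55 in KO ras cells with AG1478 and −0.67 ± 0.42 in KO ras cells, a difference of 0.62 ± 0.28 (limma adjusted p = 0.294). The effect in WT cells was lower by 3.23 ± 0.40 (2.52e-06), also with run as a random block (0.000919). KO ras samples were at −0.71 to 0.63 with the inhibitor and at −1.23 to −0.25 without it, all below every untreated WT ras sample. Psca, which rose in WT cells, differed by −1.02 in KO ras cells, and the effects differed by 3.54 ± 0.70 (0.0145). Rhog, a small GTPase (2.37, 0.0149), the lysosomal transporter Slc46a3 (2.20, 0.0186) and Grn (1.73, 0.0491) were also higher in the WT than in the KO effect. Hnrnpa2b1 (−2.68, 0.013), Ddx5 (−3.30, 0.013) and Hnrnpk (−2.24, 0.0477), all further down in run 7 than in run 8 of the treated WT samples, were lower. Nyap2 had the largest such difference of the genes named (4.04, 0.00214), with a difference of 1.61 in WT ras cells, not called (0.0567), and of −2.43 in KO ras cells (0.0138). Aste1, in contrast, rose in KO ras cells too, by 2.30 ± 0.52 (0.0391). There AG1478 had 63 called of 27949 probes (0.225%), 26 higher (0.093%) and 37 lower (0.132%). With run as a random block 0 were called in KO ras cells (limma, 895 at an unadjusted p under 0.05). Among the lists, hnRNP genes had 1 of 13 positive and 4 called lower in this contrast, while all 12 keratins of stressed or simple epithelia were positive (median 1.11, against 0.13 for all genes) and none was called. Of the 6 KO ras arrays with AG1478, 2 ran against the dye order of their labels and were turned by their correlation with the other arrays. By label, 550 probes were called. Leaving out 1 sample gave 18 (without KO ras array 2) to 708 (without AG1478 array 3 of WT ras), and 1 probe was called with run as a random block.

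**Figure D5:**
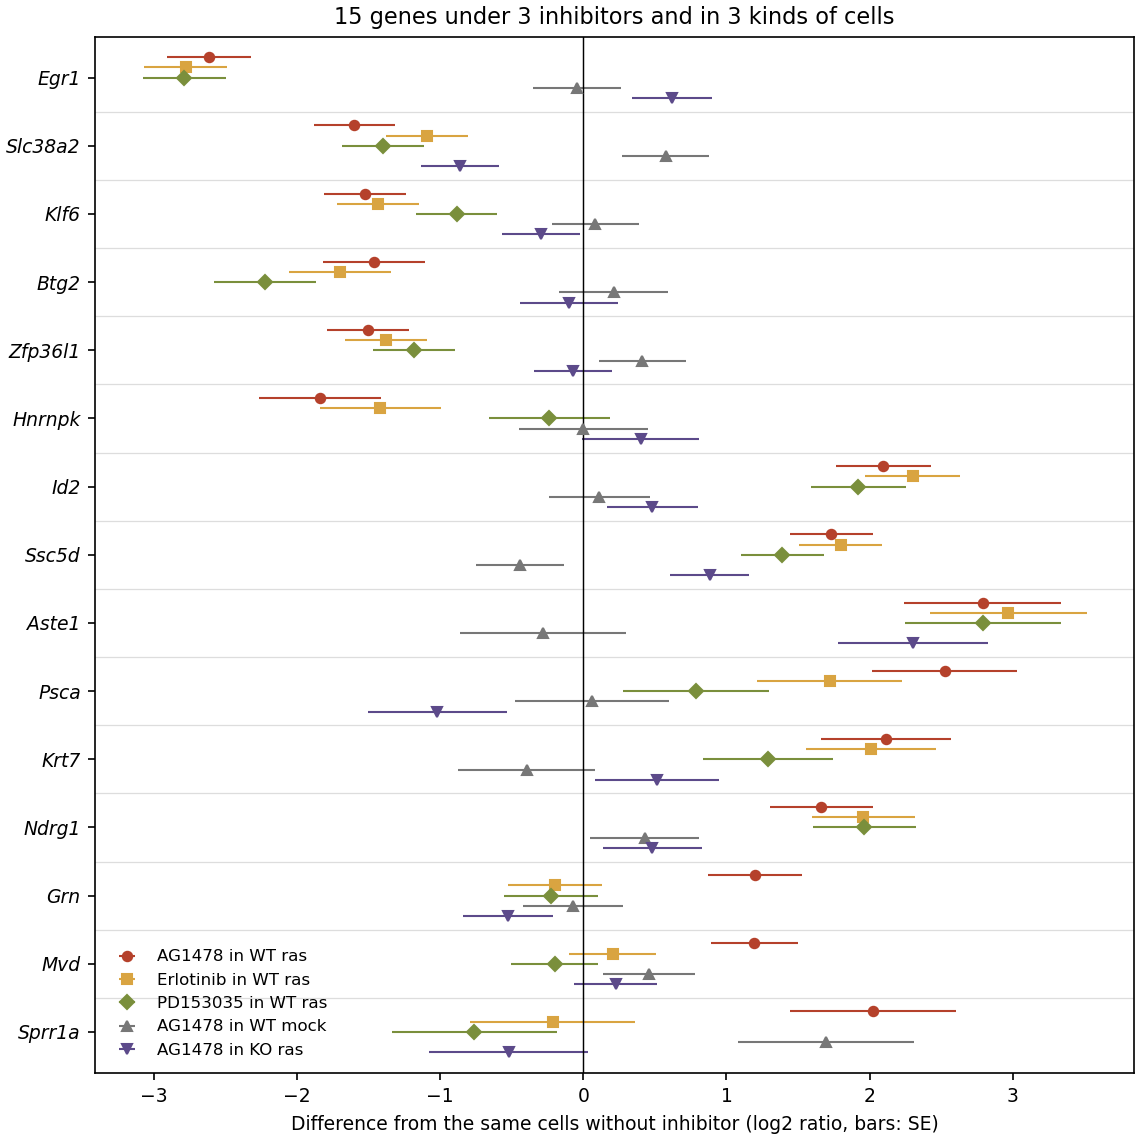
Log2 difference from untreated cells of the same kind (horizontal axis, bars ± SE) for 15 genes in 5 comparisons: AG1478, erlotinib and PD153035 in WT ras cells, AG1478 in WT mock cells and AG1478 in KO ras cells. The 3 inhibitors in WT ras cells share their untreated samples. Egr1 lies at −2.61, −2.78 and −2.79 with the 3 inhibitors in WT ras cells, and at −0.04 in mock cells and 0.62 in KO ras cells.

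Erlotinib and PD153035 were given to WT ras cells at the same 1 µM for 2 h. All 3 compounds are anilinoquinazolines. AG1478 and PD153035 carry the same pair of methoxy groups on the quinazoline and differ in the halogen of the aniline ring, chlorine in AG1478 and bromine in PD153035. Erlotinib has an ethynyl group in that place and methoxyethoxy side chains on the quinazoline. Both pairs that include AG1478 were compared, with adjustment over the probes of each pair, directly and without the untreated samples, which the 3 effects against WT ras share. AG1478 less erlotinib was called at 249 of 27750 probes (0.897%), 73 higher (0.263%) and 176 lower (0.634%). AG1478 less PD153035 was called at 357 of 27758 probes (1.29%), 161 higher (0.58%) and 196 lower (0.706%).

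Egr1 and the other early genes that fell were not called between the compounds, and of 32 ERK pathway genes 1 was: Spred1, an inhibitor of the pathway, was lower with AG1478 than with erlotinib (−1.20 ± 0.31, limma adjusted p = 0.0408). Egr1 averaged 0.01 ± 0.19 with AG1478, −0.15 ± 0.51 with erlotinib and −0.16 ± 0.35 with PD153035. AG1478 less erlotinib was 0.16 (95% interval −0.42 to 0.75, adjusted p = 0.868), and AG1478 less PD153035 was 0.17 (−0.41 to 0.76, 0.803). Klf6 gave −0.09 (−0.66 to 0.48) against erlotinib and −0.64 (−1.21 to −0.07, 0.221) against PD153035. Zfp36l1 gave −0.13 (−0.70 to 0.45) and −0.32 (−0.90 to 0.25), in the same order, and Id2 −0.20 (−0.87 to 0.46) and 0.18 (−0.49 to 0.84). Btg2 gave 0.24 (−0.47 to 0.95) and 0.76 (0.05 to 1.47, 0.248). Side by side, against the shared WT ras samples, Id2 differed by 2.10, 2.30 and 1.92 with AG1478, erlotinib and PD153035, Klf6 by −1.53, −1.43 and −0.89, Btg2 by −1.46, −1.70 and −2.22, and Slc38a2 by −1.60, −1.09 and −1.40.

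Several keratins and cornified envelope genes were higher with AG1478 than with PD153035. Of 12 keratins of stressed or simple epithelia 10 were positive in AG1478 less PD153035 (median 0.76, against 0.05 for all genes) and 3 were called higher: Krt16 (2.97 ± 0.67, limma adjusted p = 0.0194), Krt17 (3.58 ± 0.94, 0.0398) and Krt6b (2.79 ± 0.69, 0.0285). Krt16 averaged 7.09 with AG1478, 5.29 with erlotinib and 4.12 with PD153035, and Krt17 had 6.61, 4.84 and 3.03 in that order. Of 23 suprabasal genes 20 were positive (median 1.17), with Sprr1a, Dmkn (3.37 ± 0.90, 0.0414) and Sbsn (2.51 ± 0.66, 0.0397) called higher. Against erlotinib 18 of the 23 were positive (median 0.56), and Sprr1a was the only one called. These list members were picked out after their values were seen. The gap between keratinocyte and reference pool genes was 3.66 to 5.93 with AG1478, 2.84 to 4.90 with erlotinib and 1.63 to 5.72 with PD153035. Krt16, Krt17, Krt6b and Sprr1a are themselves among its keratinocyte genes, so the gap is in part the same measurement. Its part in these differences was not tested.

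Sprr1a and Grn were higher with AG1478 than with either other compound. Sprr1a averaged 5.95 ± 0.54 with AG1478, 3.72 ± 1.39 with erlotinib and 3.17 ± 1.61 with PD153035, a difference of 2.24 (95% interval 1.08 to 3.39, limma adjusted p = 0.0405) from erlotinib and of 2.79 (1.63 to 3.94, 0.0125) from PD153035. Grn averaged 0.60 with AG1478, −0.80 ± 0.33 with erlotinib and −0.83 ± 0.66 with PD153035, higher with AG1478 by 1.40 (0.74 to 2.06, 0.0215) and 1.42 (0.76 to 2.08, 0.0213). Mvd was higher than with PD153035, by 1.40 (0.79 to 2.00, 0.0162), while the 0.99 over erlotinib was not called (0.0905). Apoe, the lipid carrier, was lower with AG1478 than with erlotinib (−2.34, 0.0144) or PD153035 (−2.66, 0.00668). Uchl4, of the ubiquitin hydrolases, averaged 0.31 with AG1478, 2.27 with erlotinib and 1.56 with PD153035 (differences −1.96, 2.97e-05, and −1.25, 0.0157). Against erlotinib alone, the apoptosis repressor Nol3 (−2.21, 0.00025), Slc9a9, a sodium and proton exchanger (−1.86, 0.000492), and Alox5, the lipoxygenase of leukotriene synthesis (−2.12, 0.00561), were lower. The cadherin Cdh4 (1.85, 0.00972) was higher in that pair. Both further probes of Nol3 had the opposite sign in AG1478 against WT ras, where Nol3 itself was not called. Their signs against erlotinib were not compared. Against PD153035, Inpp5k, an inositol phosphatase (2.23, 0.000504, or 0.0261 with run as a random block), Vps37d (2.92, 0.00492) and Afm (2.70, 0.00126) were higher. Hnrnpk was lower with AG1478 than with PD153035 (−1.60, 95% interval −2.45 to −0.75, 0.0414), but not than with erlotinib (−0.42).

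PD153035 was given in run 8 only, so its pairs can also be read with the 2 AG1478 arrays of that run. There Hnrnpk averaged 0.54 with AG1478 and 0.80 with PD153035, a difference of −0.52 ± 0.53 in the fit with the dye term (limma adjusted p = 0.783), and Hnrnph1, also called over all runs (−1.51, 0.0185), was at −0.43 ± 0.40 (0.748). Hnrnpm, likewise called over all runs (−1.23, 0.0325), did not shrink in run 8, at −1.37 ± 0.42, but was not called there (0.142). The differences of Sprr1a (2.96 ± 0.78, 0.0852), Krt16 (2.18 ± 0.90, 0.303), Krt17 (3.12 ± 1.29, 0.301), Krt6b (2.05 ± 0.93, 0.36), Dmkn (2.77 ± 1.22, 0.343) and Sbsn (2.07 ± 0.90, 0.339) kept their direction without being called. So did those of Grn (1.04 ± 0.44, 0.322), Mvd (1.22 ± 0.40, 0.172), Apoe (−2.61 ± 0.71, 0.0928), Uchl4 (−0.99 ± 0.36, 0.229), Inpp5k (1.65 ± 0.42, 0.0757) and Vps37d (2.56 ± 0.75, 0.117). Afm stayed called (2.87 ± 0.63, 0.0394). So did Tyrobp, one of the leukocyte markers, at 2.93 ± 0.52 (0.00955) in run 8 and 1.79 (0.0230) over all runs.

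The erlotinib arrays were in runs 5 and 6 and share none with AG1478, so compound and run cannot be told apart in that pair, and with run as a random block 0 probes were called (limma, 1537 at an unadjusted p under 0.05). All PD153035 arrays were in run 8, with AG1478 arrays 3 and 4. Within run 8 alone 50 probes were called, and 33 with run as a random block. Leaving out 1 sample gave 67 (without erlotinib array 3) to 809 (without erlotinib array 2) called probes for the first pair, and 16 (without PD153035 array 1) to 1063 (without AG1478 array 3) for the second.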

How the data were processed

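The values are log2 ratios of sample over reference per probe as deposited by the authors, each array centred near 0, and the base 2 is assumed. Background correction and normalization are not given in the sources used here. Per the labels' protocols, RNA was extracted with Trizol and labelled indirectly with Cy3 or Cy5. From these values, ratios of 12 reversed arrays were turned to sample over reference, and 2 disputed arrays by their correlation. All 63 arrays (62 samples, since a repeated WT mock array was averaged, in 13 groups) entered 1 model with a dye term (limma 3.58.1 and statmod 1.5.0 in R 4.3.3). No sample compared was dropped, and missing values were not imputed. A probe was tested where at least 60% of arrays of each group had a value, with Benjamini-Hochberg adjustment over all probes and a threshold of 0.05. Figures used Python 3.11.15 and matplotlib 3.10.9. The probe with most values stands for a gene.

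Members, 31 gene lists, 7 added lists and tests were chosen with earlier results of these data known. Named genes are the 12 called, non-overlapping genes with the largest differences in each direction, up to 4 called genes per list (else the one with the smallest p), a fixed set of ERK, ligand and FOXO genes, and the 5 smallest p in each direction of the other comparisons. Called members of added lists and Ssc5d, Klf6, Slc38a2 and Tyrobp where outside that rule were chosen after their values were seen. Alternatives covered dye, normalization, missing values, samples, runs and array weights. The fit was tested on simulated data without an effect of run.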

Additional observations from a re-analysis of the deposited data

Results flagged for a closer look

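In 20 of 216 groups of 5 samples of a named gene, 1 sample lay farther from the nearest other than 0.71 of the group's range allows, and chance gives about 1 in 20. In WT ras cells with AG1478, array 3 was the one apart for Ms4a2 (−1.69, the others from −3.42 to −3.05), Grn (−0.17), Klf4 (1.04), Uchl4 (0.77) and Phlda1 (1.92). Array 4 was apart for Fos (−1.58, the others from 0.86 to 1.82) and Sp5 (−0.52), array 5 for Tgfa (3.98), array 1 for Pdcd2l (−0.33) and array 2 for Slc9a9 (0.71). In WT ras cells, array 3 was apart for Phrf1 (1.90), Me1 (−0.46), Bnc1 (−0.22, the others from 3.64 to 4.23), Timp3 (0.49) and Alox5 (−0.98), array 5 for Eif4b (2.25), Safb (1.13) and Dusp1 (0.35), array 4 for Klf6 (3.36) and array 1 for Grn (−1.69). Of these 20, 10 are at array 3 of either group, the array with the lowest correlation to the forward median.

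The AG1478 effect differed between WT ras and WT mock cells by −2.57 for Egr1, 2.17 for Ssc5d and −2.17 for Slc38a2 (limma interaction, adjusted p under the threshold). Between WT ras and KO ras cells it differed by −3.23 for Egr1, 1.55 for Meltf, 3.54 for Psca, 2.20 for Slc46a3, 2.37 for Rhog, 1.73 for Grn, 4.04 for Nyap2, 1.75 for Spidr and 1.86 for Tshb. For RNA-binding and translation genes the WT less KO values were −2.68 for Hnrnpa2b1, −2.24 for Hnrnpk, −2.07 for Hnrnpa3, −2.21 for Eif4g2, −3.30 for Ddx5, −1.69 for Srsf5 and −1.34 for Zfp36l2. Phrf1 (−2.45), Safb (−2.15), Igkv1-35 (−2.28) and Cd4 (−2.03) were lower in the same contrast. The KO ras arrays with AG1478 and those without it share no run.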

How the results depend on the processing

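For AG1478 in WT ras cells, against 539 called probes in the fit as described, 274 were called without the dye term, 954 on forward arrays only, 341 after quantile normalization, 301 of averaged genes, 850 with array weights and 276 with the disputed dye orders by label. Only the groups compared gave 3, all 4 WT ras groups 55 (chosen after seeing the data), the AG1478 arrays of run 7 alone 1566, those of run 8 alone 107, and run as a random block 1. Leaving out 1 sample gave 129 (AG1478 array 1) to 962 (AG1478 array 3). The other settings that moved the count over 1.5 times were those without AG1478 array 2 (145) or 5 (265) or WT ras array 1 (236) or 5 (178). Without both arrays numbered 3, also chosen after seeing the data, 749 were called. Centring, both missing-value filters, the WT mock repeat kept apart and both disputed arrays left out gave 456 to 545.

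For the effect in WT ras less that in WT mock cells, against 5, the counts were 3 without the dye term, 23 on forward arrays, 48 with array weights, 1 by label, and 0 both with only the groups compared (limma, 1570 at an unadjusted p under 0.05) and with run as a random block (1527). With 1 sample left out they were 1 to 10. For WT ras less KO ras, against 242, they were 62, 655, 2644 and 550 in the same 4 settings, 413 after quantile normalization, 115 by gene, 4 with only the groups compared and 1 with the random block, and 18 to 708 with 1 sample left out. For AG1478 less erlotinib, against 249, forward arrays gave 35, quantile normalization 421, averaged genes 131, array weights 647 and the labels 142. Only the groups compared (3006 unadjusted) and the random block (1537) gave 0, and 1 sample left out 67 to 809. For AG1478 less PD153035, against 357, no dye term gave 190, quantile normalization 1308, averaged genes 191, array weights 2899, the labels 112, the random block 33 and run 8 alone 50. Only the groups compared gave 0 (4555 unadjusted), and 1 sample left out gave 16 to 1063. For the contrast with mock cells, run as a fixed block could not be fitted.

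The labels number the replicates alike in the groups. Same-numbered samples of the 2 main groups had residual correlations of 0.02, −0.16, 0.53, 0.04 and 0.41. Samples with different numbers ran from −0.47 to 0.32. These values do not settle whether the numbers pair the samples, and the main fit did not pair them. With the replicate block, in a fit of only the groups compared, 5 probes were called for AG1478 in WT ras, 2 for WT less KO ras, 126 for AG1478 less erlotinib, and 0 for the contrast with mock (1150 at an unadjusted p under 0.05, limma) and with PD153035 (4462). Of the 51 called genes named, Egr1 alone was called in every setting, Egr1 and Aste1 with the block, and none changed sign. Of 60 named genes not called, 19 were called in some setting. The cause of these shifts was not tested. The number of arrays limits the precision.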
